A study of Mus musculus with 25 samples.

Results

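Chromatin accessibility of sorted retinal progenitor cells was compared between the day of birth (P0) and embryonic day 12.5 (E12.5). The measurement was ATAC-seq, in which a transposase cuts and tags open DNA so that read counts report how accessible a stretch of chromatin was. The comparison used 4 of the 25 libraries of the series, selected by their labels: 2 of GFP+ cells of the retina at P0 and 2 of GFP+ cells at E12.5. A further 6 libraries of GFP+ cells, from E14, E16.5 and E18, served to estimate the spread and to show the course between the ends. All groups were CD1 mice, an outbred albino stock. The labels call the GFP+ cells RPCs and name neither the reporter that carries GFP nor any further allele, and they do not say whether the replicates came from separate animals, litters or sorts, so that a p-value speaks of the spread among these libraries and of no wider one. The E10 library and the P2 libraries were left out of the main comparison.

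Retinal progenitor cells are dividing cells that give rise to all neurons of the retina and to Mueller glia in an order that is conserved among vertebrates. Early progenitors yield ganglion cells, horizontal cells, cones and part of the amacrine cells. Late progenitors, those around birth in the mouse, yield rods, bipolar cells and Mueller glia. The change in competence is known to go with a change in regulators, among them the nuclear factor I proteins (Nfia, Nfib and Nfix) in late progenitors and Ikzf1 and the Lin28 proteins in early ones.

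Counts were given for windows of 200 bp in runs of 50 around annotated transcript starts. Summing each run gave 28329 regions of 10 kb, placed on the mouse build mm9. The P0 libraries held 22632045 and 11176227 counts in these regions, against 35066202 and 27183411 in the E12.5 libraries, and the other libraries in the fit held up to 94662422. Start enrichment, which divides the mean count per window of the central 400 bp by that of the 3 windows at each end, was 27.8 and 28.6 at P0, against 19.9 and 18.5 at E12.5, or 28.2 ± 0.535 against 19.2 ± 0.991 (SD, n = 2 each). The libraries of the ages did not overlap, but with 2 against 2 libraries the exact two-sided permutation test cannot go below p = 0.333, which is the value it gave. E14, E16.5 and E18 libraries lay at 23.7 to 26.7, the left-out E10 library at 6.40 and the P2 libraries at 22.7 and 12.2. Because enrichment differed with age, each library was scaled by a smooth trend of its counts on the mean abundance of the regions. Levels below are scaled CPM, counts adjusted by this trend, of the 10 kb region unless another width is named. The adjustment varies with the abundance of the region, so that levels are not shares of a library total. The scaling removes any change shared by all regions of like abundance, so that whether starts as a whole were more open at P0 cannot be told apart from the quality of the libraries.

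**Figure D1:**
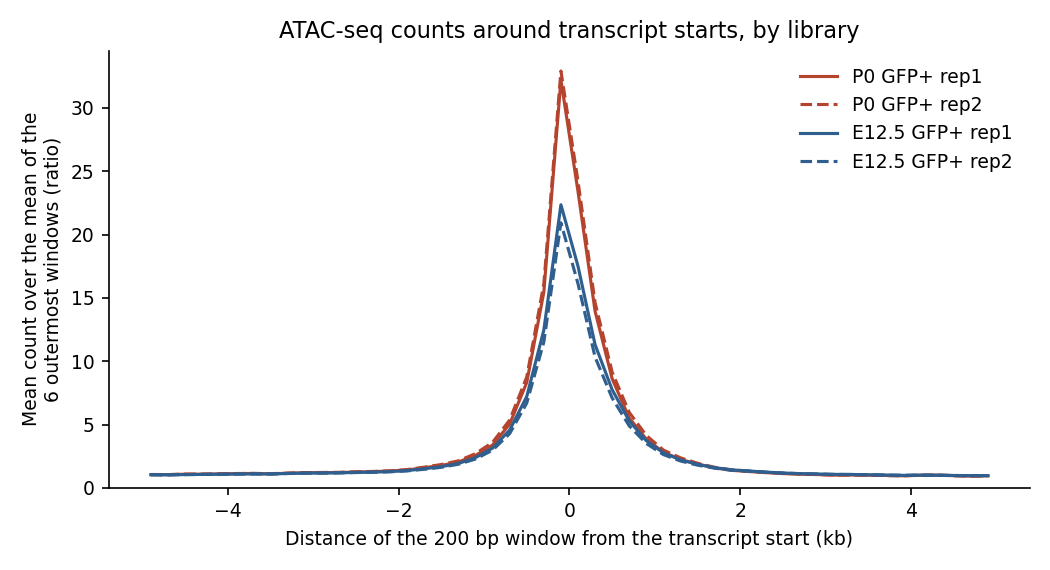
Mean count per 200 bp window, divided by the mean of the 6 outermost windows, against the distance from the transcript start in kb, for the P0 libraries (red) and the E12.5 libraries (blue), replicate 1 solid and replicate 2 dashed. Both P0 libraries rise higher at the start, with an enrichment over the central 400 bp of 27.8 and 28.6 against 19.9 and 18.5 at E12.5.

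Nearly every other region differed between the ages, mostly by small amounts. Of 27743 regions tested with the quasi-likelihood test of edgeR, 13277 were called at an adjusted p below 0.05, which is 47.9%. Of these, 6826 (24.6% of all tested) were higher at P0 and 6451 (23.3%) were lower. The median size of a called change was 0.50 on the log2 scale, or 1.42-fold. Replicate libraries lay close together, with a correlation of log2 levels across regions of 0.984 at P0 and 0.996 at E12.5, and the SD of the log2 difference between replicates was 0.335 at P0 and 0.171 at E12.5. The levels of the ages did not overlap in 72.3% of regions. A stricter rule that also asks for a log2 change of at least 1, chosen after the data were seen, left 2089 regions (7.53%), 757 higher at P0 (2.73%) and 1332 lower (4.8%). These are called large changes below. Counts restricted to the central 2 kb gave 11376 calls among 27459 starts (41.4%), and the exon counts of the same libraries gave 8142 calls among 21056 genes (38.7%), or 4375 without the first P0 library. Large changes made up 10.6% of starts (4.08% higher and 6.53% lower at P0) and 9.21% of genes by exon counts (2.85% higher and 6.35% lower).

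The choice of scaling set the balance of directions. With TMM factors in place of the trend, large changes came to 431 higher and 6866 lower regions, and called regions to 10750 higher and 10851 lower. With library size alone, the median over all regions lay at -0.21, and 6885 regions were called higher and 13159 lower. With a trend on start share in place of abundance, large changes came to 2076 higher and 1852 lower regions. All 1332 regions with a large fall were also called lower with TMM, whereas 356 of the 757 with a large rise were also called higher and none was called lower. Across regions, the log2 change with TMM correlated with the share of a region's counts in its central 2 kb at r = 0.534, and that with the trend at r = 0.0098, both over 27743 regions that share the same libraries. With the log level of the region, the correlation was 0.780 for TMM and 0.081 for the trend. Lists of weakly accessible genes therefore lean lower with TMM, and lists of highly accessible ones lean higher. Calls below are those with the trend, and the TMM value is given where a named call or its direction was lost with it.

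**Figure D2:**
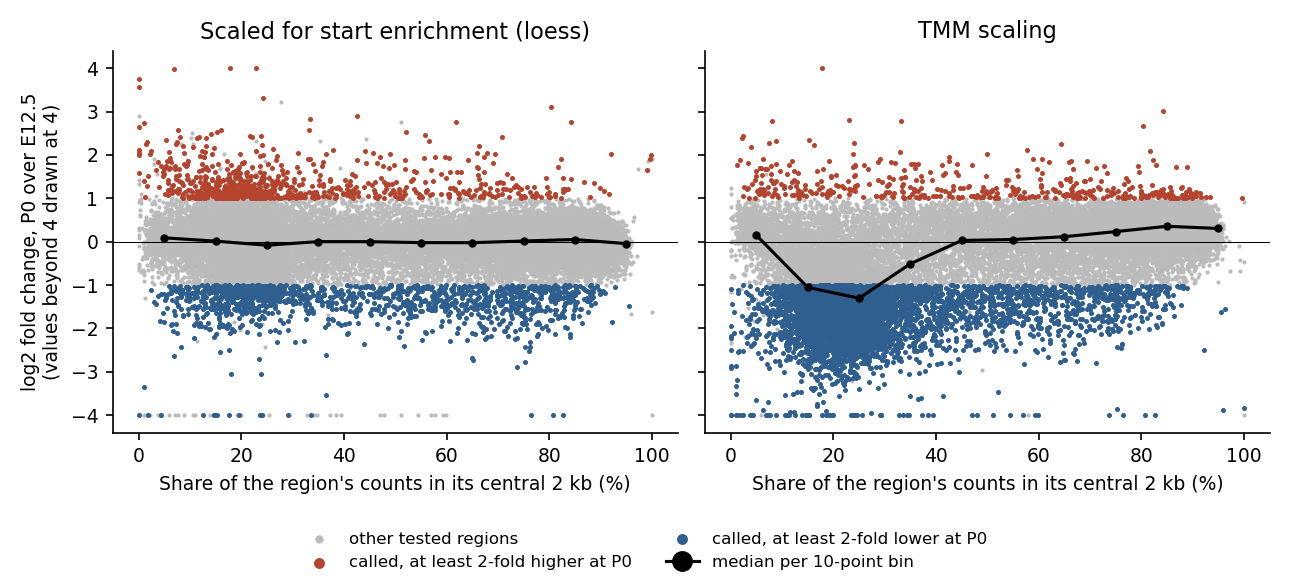
The log2 fold change of each region, P0 over E12.5, against the share of its counts in the central 2 kb in percent, scaled by the abundance trend (left) and by TMM (right). Red and blue points are called regions at least 2-fold higher and lower at P0, grey points the other regions, and the black line is the median per bin of 10 points. The median stays near 0 on the left and lies far below 0 on the right for low start shares other than those of the lowest bin.

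Regions of genes known from late progenitors gained accessibility at P0. Of 14 such genes tested, 12 were called higher at P0 and 1 lower, against 24.4% and 23.1% of all genes (47.5% together; large changes made up 2.57% and 4.83%, 7.39% together), and the median log2 change was 0.74 against 0.003 over all genes. Nfix, a nuclear factor I transcription factor, had 46.9 and 56.8 scaled CPM at P0, against 12.3 and 14.6 at E12.5 in the 10 kb around its start (mm9 chr8:87293268-87303267). Both P0 libraries lay more than 3-fold above both E12.5 libraries, a log2 change of 1.94 ± 0.11 (SE; adjusted p = 8.97e-18). A second annotated start of Nfix rose by 1.19. Nfia had 104 and 107 scaled CPM at P0, against 38.3 and 40.7 at E12.5, a log2 change of 1.42 ± 0.08 (adjusted p = 1.68e-17). Its libraries at E16.5 and E18 averaged 105 and 119, so that the level of P0 was already present at E16.5. Nfib had 169 and 179 scaled CPM at P0, against 106 and 95.9 at E12.5, a smaller rise of 0.78 ± 0.07. Exon counts of Nfib in the same libraries went the other way, at -0.49.

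Rlbp1, which encodes the retinoid-binding protein of Mueller glia, had 46.8 and 47.1 scaled CPM at P0, against 13.3 and 11.5 at E12.5 (mm9 chr7:86526913-86536912). The groups stood far apart, with a log2 change of 1.91 ± 0.10 (adjusted p = 2.95e-18), and the 200 bp window with the smallest p, centred 1.9 kb before the start, had 11.9 and 9.96 scaled CPM at P0, against 0.791 and 0.343 at E12.5. Olig2, a basic helix-loop-helix factor of neurogenic progenitors, had 89.9 and 82.0 scaled CPM at P0, against 44.3 and 43.9 at E12.5, a log2 change of 0.97 ± 0.07. Casz1, a zinc finger factor that acts in later progenitors, rose by only 0.39 ± 0.07 and had 78.1 and 81.6 scaled CPM at P0, against 60.4 and 61.2 at E12.5. Slc1a3, the glial glutamate transporter, was the member called lower (-0.30), a direction that it did not keep with TMM (0.03). The median of the list was positive under each of the scalings tried.

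Early progenitor genes did not move as one group. Of 16 tested, 5 were called higher at P0 and 7 lower with the trend on abundance, 9 higher and 4 lower with TMM, and 10 higher and 5 lower with a trend on start share, and their median was -0.11 with the trend and 0.23 with TMM, so that the sign of the median depended on the scaling. The members with the largest falls kept them under both. Lin28a, an RNA-binding protein that blocks maturation of let-7 microRNAs and marks early stages, had 9.33 and 7.36 scaled CPM at P0, against 24.1 and 25.5 at E12.5 (mm9 chr4:133569731-133579730). Both P0 libraries lay below both E12.5 libraries, with a log2 change of -1.53 ± 0.14 (adjusted p = 5.20e-12), and the window just before the start had 0.230 and 0 scaled CPM at P0, against 1.42 and 1.79 at E12.5. Its paralog Lin28b had 18.8 and 23.5 scaled CPM at P0, against 38.4 and 39.5 at E12.5 and fell by 0.91 ± 0.11.

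Ikzf1 (Ikaros), the zinc finger factor that confers early competence in the mouse retina, had 27.7 and 27.3 scaled CPM at P0, against 64.8 and 70.2 at E12.5 (mm9 chr11:11580928-11590927). The ages were well apart, and the log2 change was -1.29 ± 0.09 (adjusted p = 4.36e-15). Foxp1, a forkhead factor of early progenitors, has several annotated starts that behaved differently. The start with the highest counts had a log2 change of -0.01 and was not called, while the start with the smallest p had 7.92 and 7.86 scaled CPM at P0, against 18.8 and 21.8 at E12.5, a change of -1.36 ± 0.14. Pou2f1, a POU factor, likewise fell by 0.35 at the start with most counts (-0.01, not called, with TMM), with 122 and 117 scaled CPM at P0, against 155 and 152 at E12.5, and rose by 2.77 ± 0.10 at another start, which had 67.5 and 65.5 scaled CPM at P0, against 8.69 and 11.0 at E12.5. Fgf15, the FGF ligand of embryonic progenitors, had 83.4 and 75.7 scaled CPM at P0, against 83.9 and 83.7 at E12.5 and was not called (-0.07 ± 0.07). Sfrp2, a secreted Wnt modulator, had 91.8 and 103 scaled CPM at P0, against 119.6 and 114 at E12.5, a fall of 0.27 with the trend that was 0.09 with TMM and not called (-0.17) without the first P0 library. Igf2bp1 fell by 0.42 with the trend and was not called with TMM (-0.05), and Hmga2 and Hmga1, chromatin proteins of early stages of which Hmga2 is also on the core list below, rose by 0.28 and 0.45.

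**Figure D3:**
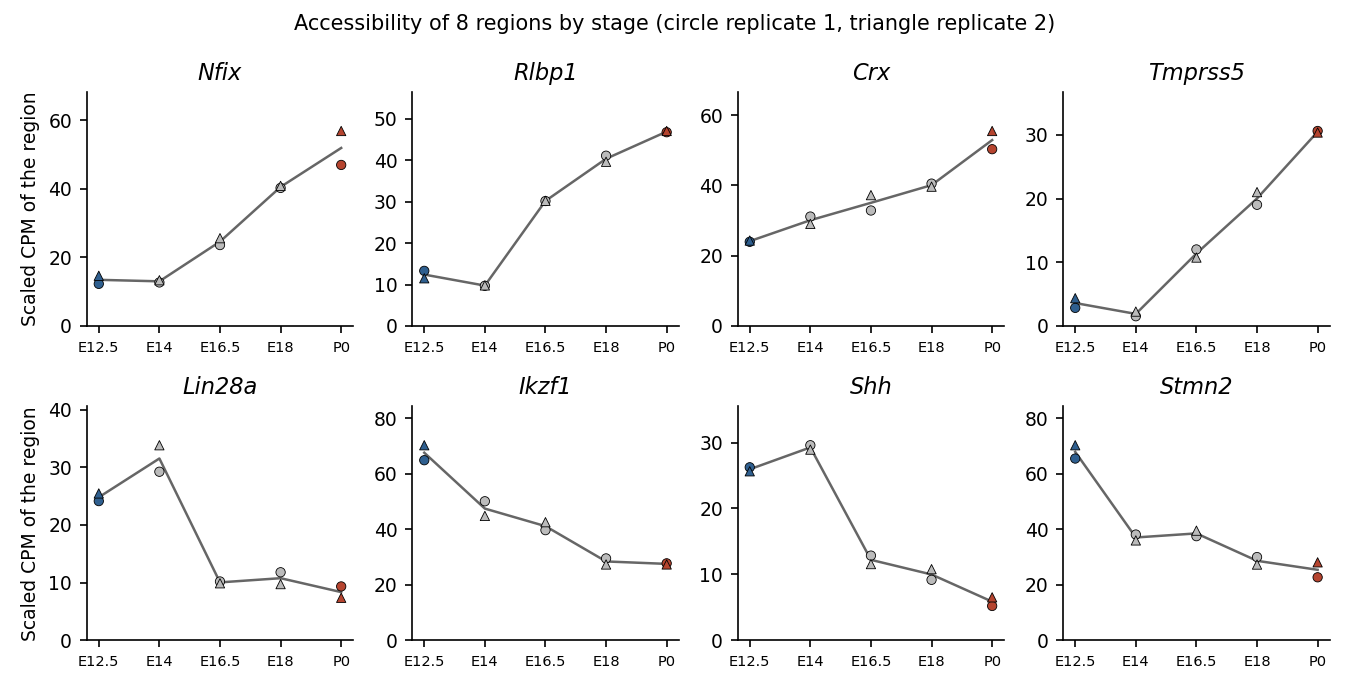
Scaled CPM of 8 regions at the stages E12.5, E14, E16.5, E18 and P0, with replicate 1 as circles, replicate 2 as triangles and the line through the mean of the 2 libraries (blue E12.5, grey middle stages, red P0). Nfix, Rlbp1 and Tmprss5 are no higher at E14 than at E12.5 and climb from E16.5 on, Crx climbs at each stage, Lin28a and Shh drop between E14 and E16.5, and Ikzf1 and Stmn2 are already lower at E14.

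General progenitor genes all rose, but moderately. All 14 members of the core list were called higher at P0, with log2 changes of 0.28 to 0.84 and a median of 0.53, and none reached a large change with the trend. The direction held under each scaling, and the TMM median was 0.87. Their regions were among the more accessible ones, with a median level of 139 scaled CPM over the 10 libraries, against 26.3 over all regions. Sox2, an HMG box factor of neural progenitors, had 136 and 131 scaled CPM at P0, against 84.1 and 79.2 at E12.5, Six3 had 177 and 172 scaled CPM at P0, against 105 and 93.9 at E12.5, and Notch1 had 223 and 189 scaled CPM at P0, against 108 and 123 at E12.5, with no overlap of the ages in any of them. The central 2 kb of Notch1 was not called (0.06), so that its rise lay in the flanks of the region. Pax6 rose by 0.38 at the start with most counts and by 0.67 ± 0.07 at the start with the smallest p. Another of its starts was at -0.15. Hes1, an effector of Notch signalling, had 237 and 221 scaled CPM at P0, against 165 and 157 at E12.5, and Ccnd1, the main G1 cyclin of the retina, had 168 and 156 scaled CPM at P0, against 114 and 123 at E12.5.

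Among 30 cell cycle genes, 17 were called higher at P0 and 1 lower, with a median of 0.27, and 29 higher and none lower with TMM, with a median of 0.52. Tyms (thymidylate synthase) had 22.2 and 23.0 scaled CPM at P0, against 11.3 and 11.0 at E12.5, a log2 change of 1.01 ± 0.12. Cdk1, the mitotic kinase, had 62.1 and 63.5 scaled CPM at P0, against 36.4 and 37.3 at E12.5, a change of 0.77 ± 0.08. Mki67 rose by 0.34 ± 0.08, and Ccne2 was the member called lower, at -0.17 (0.18 with TMM). Genes of cells about to leave the cycle were called higher in 14 of 17 cases and lower in 2, with a median of 0.51. Hes6 had 159.9 and 170.1 scaled CPM at P0, against 90.0 and 84.9 at E12.5, and Insm1 and Otx2 rose by 0.71 and 0.51. The pair called lower comprised Gadd45a (-0.43) and Atoh7 (-0.39), the factor that makes progenitors competent for ganglion cell fate. Atoh7 had 28.3 and 33.4 scaled CPM at P0, against 42.7 and 37.2 at E12.5, and neither member kept its call with TMM, where Atoh7 was at -0.08 and Gadd45a at -0.09.

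The Notch pathway keeps progenitors cycling: ligands on differentiating cells activate receptors on their neighbours, and Fringe proteins modify the receptors. Of 19 members tested, 10 were called higher and 2 lower, with a median of 0.47, and 16 higher and 1 lower with TMM, with a median of 0.83. The Delta ligands rose, whereas the Jagged ligands fell. Dll4 had 107 and 108 scaled CPM at P0, against 51.9 and 46.3 at E12.5 (log2 change 1.13 ± 0.07), Dll1 had 186 and 174 scaled CPM at P0, against 98.1 and 90.1 at E12.5 (0.94 ± 0.07), and Dll3 rose by 1.14. Jag1 and Jag2 changed by -0.67 and -0.47, and with TMM by -0.33 and -0.17, where Jag2 was not called. The Fringe genes Lfng and Mfng rose by 0.93 and 0.95, whereas Rfng was not called with the trend (0.09) and was called higher with TMM (0.27). Of the receptors, Notch1 rose by 0.84, and Notch2 and Notch3 were not called with the trend, at -0.18 and -0.00, and were at 0.18 and 0.30 with TMM, where Notch3 was called higher. The targets Hes1, Hes5, Nrarp and Heyl rose by 0.51, 0.56, 0.47 and 1.18.

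In the Hedgehog pathway, the ligand and the target genes moved in opposite directions. Shh, which ganglion cells secrete in the developing retina, had 5.19 and 6.50 scaled CPM at P0, against 26.2 and 25.6 at E12.5 in a region at mm9 chr5:28788641-28798640. The log2 change was -2.19 ± 0.14 (adjusted p = 7.23e-16), and the window with the smallest p, 2.3 kb after the start, had 0.170 and 0.111 scaled CPM at P0, against 2.06 and 1.90 at E12.5. Gli1, the transcriptional effector whose expression reports pathway activity, had 113 and 110.1 scaled CPM at P0, against 64.2 and 61.8 at E12.5 and rose by 0.82 ± 0.07. Ptch1, the receptor and a target, had 237 and 232 scaled CPM at P0, against 165 and 152 at E12.5 and rose by 0.57 ± 0.06, and Hhip, a ligand-binding antagonist and target, had 92.1 and 99.8 scaled CPM at P0, against 53.4 and 56.5 at E12.5 and rose by 0.80 ± 0.07. Neither Ptch1 nor Hhip was called in the central 2 kb (0.18 and 0.02). Smo, the signal transducer, and Gas1, a co-receptor, each rose by 0.41, and the co-receptors Boc and Cdon fell by 0.59 and 0.46. Of 12 members in all, 6 were called higher and 3 lower.

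Most genes of neurons in general lost accessibility, whereas lists of single neuron types moved both ways. Of 16 pan-neuronal genes, 11 were called lower and 3 higher at P0, with a median of -0.38 that stayed negative under each scaling (-0.22 with TMM). Stmn2, a stathmin of growing axons, had 22.7 and 28.1 scaled CPM at P0, against 65.5 and 70.3 at E12.5 (log2 change -1.45 ± 0.10, adjusted p = 1.10e-15). Elavl4, an RNA-binding protein of neurons, had 38.1 and 44.8 scaled CPM at P0, against 82.1 and 84.8 at E12.5, and Gap43, of axonal growth cones, had 22.3 and 26.0 scaled CPM at P0, against 44.6 and 48.5 at E12.5. The ages did not overlap for any of these genes. Dcx (doublecortin) changed by -1.16, and Snap25, a synaptic vesicle fusion protein, by -0.89. The members called higher were Sncb, Stmn3 and Nefm, at 0.78, 0.54 and 0.38, of which Sncb was not called with TMM (0.34).

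Of 17 ganglion cell genes, 4 were called higher and 8 lower with the trend, 9 higher and 5 lower with TMM, and 11 higher and 4 lower with a trend on start share, and the median was -0.01 with the trend and 0.18 with TMM. Of the members with large falls, Stmn2 and Elavl4 are also on the pan-neuronal list, whereas Sncg (-1.07, and -1.40 with TMM) is not. The fate factors changed less. Pou4f2, the POU factor of ganglion cells, had 34.7 and 35.1 scaled CPM at P0, against 50.4 and 46.6 at E12.5, a fall of 0.48 ± 0.09 that was not called with TMM (-0.16). Isl1 fell by 0.42, with -0.05 under TMM, and Pou4f3, Ebf1 and Ebf3 were not called with the trend. Among 9 horizontal cell genes, 4 were higher and 2 lower, with a median of -0.05 that was 0.26 with TMM. Calb1 (calbindin) had 12.2 and 17.0 scaled CPM at P0, against 32.4 and 37.2 at E12.5, a change of -1.30 ± 0.13, and Ptf1a, the factor required for horizontal and amacrine cells, had 78.0 and 83.5 scaled CPM at P0, against 42.7 and 41.9 at E12.5, a change of 0.93 ± 0.08. Foxn4, which acts above Ptf1a, was not called (-0.05 ± 0.09). Of 15 amacrine genes, 7 were higher, led by Neurod2 at 0.98 ± 0.13, and 1 was lower, C1ql2 at -0.57, while TMM gave 12 higher and 1 lower.

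Photoreceptor genes split by how far the rise depended on scaling. Of 18 rod genes, 8 were called higher, 6 of them with a large change, and 1 lower (Rp1, -0.96). Crx, the homeobox factor of photoreceptor precursors, had 50.3 and 55.5 scaled CPM at P0, against 23.9 and 24.3 at E12.5 (mm9 chr7:16460304-16470303), a log2 change of 1.13 ± 0.09 (adjusted p = 4.34e-13) that was 1.39 with TMM. The window centred 0.1 kb before its start had 5.63 and 4.99 scaled CPM at P0, against 1.05 and 0.629 at E12.5. Both measures placed each P0 library above each E12.5 library. A second start of Crx averaged 12.1 at P0, against 2.90 at E12.5. Nrl, the factor that directs rod fate, had 29.9 and 37.4 scaled CPM at P0, against 17.3 and 17.5 at E12.5, a change of 0.93 ± 0.12 (0.97 with TMM). Sag (rod arrestin) had 10.4 and 13.4 scaled CPM at P0, against 4.46 and 4.38 at E12.5, a change of 1.41 ± 0.20 that was 0.42 and not called with TMM. The libraries of the ages did not overlap at Sag, but its level is low. Samd7, a chromatin regulator of rods, changed by 1.64 ± 0.22 and by 0.52 with TMM, again not called, and Nr2e3, Prph2 and Pde6a changed by 1.02, 1.13 and 1.27 with the trend and were close to 0 with TMM. The median over rod genes was 0.23, and it was -0.00 with TMM, which called 6 higher and 5 lower.

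To show what lies at starts that opened, the promoters of Crx and Sag are given from RefSeq (GRCm38.p6, 300 bases ending 50 bases after the start, each read 5′ to 3′ on the strand of the gene). Capitals mark matches, on either strand, to the motifs searched that lie in each promoter: the OTX and CRX motif GGATTA in both, and in Sag also the E-box CAGNTG and the TATA box TATAAA, which lies on the other strand. No match shown overlaps another. The build differs from that of the counts, so that windows were matched to promoters by gene and not by position.
Crx promoter, minus strand, chr7:15879906-15880205: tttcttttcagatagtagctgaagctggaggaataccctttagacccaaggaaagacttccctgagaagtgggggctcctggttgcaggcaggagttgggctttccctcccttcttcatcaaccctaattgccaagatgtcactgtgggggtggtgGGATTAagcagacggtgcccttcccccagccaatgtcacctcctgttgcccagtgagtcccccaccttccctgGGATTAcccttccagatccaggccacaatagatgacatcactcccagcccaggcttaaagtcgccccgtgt
Sag promoter, plus strand, chr1:87803430-87803729: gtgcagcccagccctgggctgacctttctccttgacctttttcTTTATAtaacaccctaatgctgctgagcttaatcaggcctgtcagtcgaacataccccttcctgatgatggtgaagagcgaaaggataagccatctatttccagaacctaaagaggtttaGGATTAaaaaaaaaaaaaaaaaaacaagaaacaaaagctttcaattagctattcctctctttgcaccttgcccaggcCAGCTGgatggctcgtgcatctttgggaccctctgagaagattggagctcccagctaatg
The promoter of Crx holds the motif of its own protein family at 94 and 21 bases before the start, and that of Sag holds it at 87 bases before. GGATTA was present in 8.52% of 305 promoters of genes with a large rise, 8.40% of 702 with a large fall and 6.74% of all 14276 promoters that could be matched to a single region. A match describes the letters and not a bound site.

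Cone genes were split. Of 12, 5 were called higher and 3 lower with the trend, whereas TMM gave 1 higher and 7 lower, and the median was 0.31 and -0.49. Gnb3, a G protein subunit of cones and bipolar cells, had 32.1 and 44.0 scaled CPM at P0, against 19.3 and 20.2 at E12.5 and rose under both (0.92 ± 0.11 and 0.99). Thrb and Rxrg, nuclear receptors of early cone precursors, fell: Thrb had 94.1 and 93.5 scaled CPM at P0, against 132 and 138 at E12.5 (-0.53 ± 0.07), and Rxrg had 6.20 and 6.34 scaled CPM at P0, against 19.7 and 19.0 at E12.5 (-1.63 ± 0.15). Opn1mw and Arr3, cone opsin and cone arrestin, changed by 1.14 and 1.56 with the trend and by -0.43 and 0.04 with TMM. Of 14 bipolar genes, 6 were higher and 4 lower, with a median of 0.16 that was -0.20 with TMM, which called 5 higher and 6 lower. Irx5, a homeobox factor of bipolar cells, had 205 and 187 scaled CPM at P0, against 100.1 and 102 at E12.5 (0.96 ± 0.06), and Grik1, a kainate receptor subunit, had 13.6 and 12.3 scaled CPM at P0, against 44.5 and 51.8 at E12.5 (-1.88 ± 0.12). Mueller glia genes were called higher in 7 of 16 cases and lower in 7, and in 9 and 4 with TMM. Kcnj10, the potassium channel of mature glia, had 62.6 and 71.2 scaled CPM at P0, against 42.9 and 44.5 at E12.5 (0.61 ± 0.08), and Id3 had 97.1 and 90.6 scaled CPM at P0, against 150.4 and 167 at E12.5 (-0.75 ± 0.07).

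**Figure D4:**
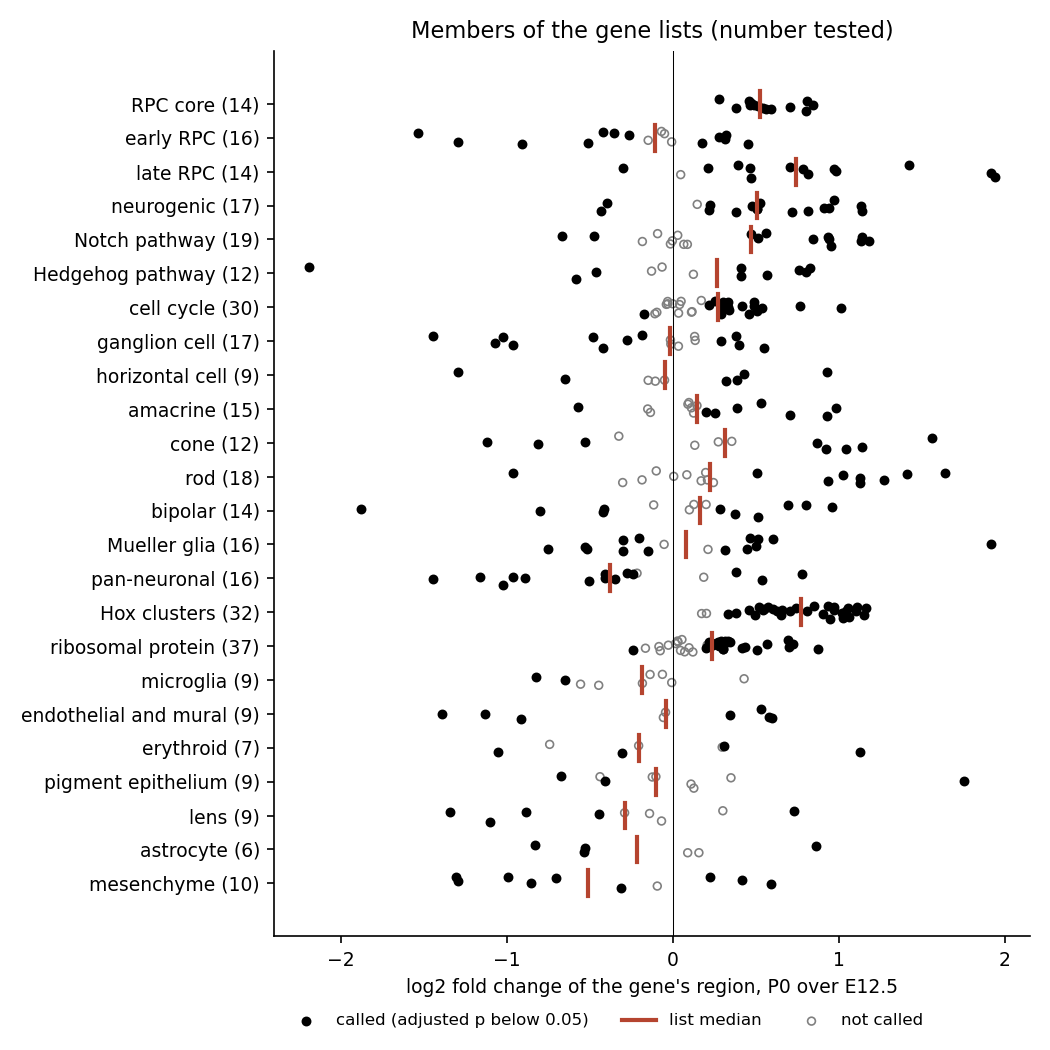
The log2 fold change, P0 over E12.5, of every tested member of 24 gene lists, 1 point per gene at the region with most counts, filled where called and open where not, with the median of the list as a red bar and the number tested in brackets. Core progenitor genes and Hox genes lie wholly to the right of 0, and pan-neuronal genes mostly to the left, with list medians of 0.53, 0.77 and -0.38.

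Among all regions, the largest rises belonged mostly to genes outside these lists. Tmprss5, a transmembrane serine protease, had 30.6 and 30.4 scaled CPM at P0, against 2.83 and 4.35 at E12.5 (mm9 chr9:48905884-48915883), a log2 change of 3.10 ± 0.17 (adjusted p = 9.91e-18). Omg, oligodendrocyte myelin glycoprotein, had 17.8 and 17.0 scaled CPM at P0, against 2.26 and 2.40 at E12.5, a change of 2.90 ± 0.20. Fxyd3, a regulator of the sodium pump, had 61.7 and 67.2 scaled CPM at P0, against 11.0 and 10.7 at E12.5, a change of 2.57 ± 0.11. For each of these the lowest P0 library was several times the highest E12.5 library. Sh2d3c, an adaptor protein, had 39.7 and 41.1 scaled CPM at P0, against 6.78 and 7.34 at E12.5, at 1 of its 2 starts. The window with the smallest p lay 2.1 kb before that start (16.9 and 15.5 scaled CPM at P0, against 0.600 and 0.530 at E12.5). The other start of Sh2d3c had more counts, with means of 41.5 at P0 and 45.6 at E12.5, and was not called (-0.14). Nwd1 had 17.6 and 23.6 scaled CPM at P0, against 3.46 and 3.94 at E12.5, and Kcnn4, a calcium-activated potassium channel, had 27.1 and 31.0 scaled CPM at P0, against 5.29 and 5.64 at E12.5. Exon counts of Nwd1 went the other way (-1.05), and the central 2 kb of Kcnn4 was not called (0.90). The remaining members of the 12 highest were the second start of Pou2f1, Lncppara, BC016548, Stmnd1, Ppp2r2cos and Bpifa6, with log2 changes of 2.20 to 2.77. All 12 were called higher with TMM as well, at 1.09 to 3.01.

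Oca2, a melanosomal membrane protein needed for pigmentation, had 2.93 and 4.38 scaled CPM at P0, against 39.9 and 39.5 at E12.5 (mm9 chr7:63490141-63500140), with a log2 change of -3.52 ± 0.18 (adjusted p = 8.75e-19). Its level passed through 24.7, 11.5 and 7.52 at E14, E16.5 and E18. Ptgs2os, whose region overlaps that of Ptgs2 (cyclooxygenase 2) so that their counts cannot be separated, had 7.62 and 6.10 scaled CPM at P0, against 42.0 and 51.8 at E12.5, a change of -2.73 ± 0.14. Clvs2, a clavesin of neurons, had 8.67 and 9.65 scaled CPM at P0, against 44.0 and 53.0 at E12.5 (-2.42 ± 0.14), and Crispld1 had 8.82 and 12.3 scaled CPM at P0, against 49.6 and 59.8 at E12.5 (-2.43 ± 0.13). Pld5 changed by -2.41 ± 0.13, and the pseudogene Marcksl1-ps4 by -2.54 ± 0.15. Sirpb1a, of a family of near-identical receptor genes, had 0 counts in both P0 libraries, against 330 and 364 at E12.5. Olfr538 and Defa20 also belong to large gene families, and they rested on 0.285 and 0.281 scaled CPM at P0, against 2.32 and 2.44 at E12.5 and on 0.319 and 0 scaled CPM at P0, against 1.15 and 1.45 at E12.5. Trpm8 and Mroh2a (-3.06 ± 0.23 and -2.49 ± 0.20) lie in 1 stretch of chromosome 1 in which 6 neighbouring regions were all lower at P0. At E12.5 the counts of the Trpm8 region were spread along its windows and not gathered at a site. Each of its first 46 windows held 8 to 35 counts in replicate 1 and 10 to 45 in replicate 2. What lies behind this difference was not tested.

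The promoters of Lin28a and Clvs2 are given for starts that closed, from the same source and in the same form. In Lin28a the capitals mark the GC box GGGCGG, read on the other strand, and in Clvs2 the homeobox motif TAATTA.
Lin28a promoter, minus strand, chr4:134018767-134019066: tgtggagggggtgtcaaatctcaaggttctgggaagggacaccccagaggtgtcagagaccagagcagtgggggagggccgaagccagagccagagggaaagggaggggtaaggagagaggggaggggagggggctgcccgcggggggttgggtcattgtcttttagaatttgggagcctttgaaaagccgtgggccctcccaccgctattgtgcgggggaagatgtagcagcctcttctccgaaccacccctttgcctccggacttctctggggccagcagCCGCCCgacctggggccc
Clvs2 promoter, minus strand, chr10:33624635-33624934: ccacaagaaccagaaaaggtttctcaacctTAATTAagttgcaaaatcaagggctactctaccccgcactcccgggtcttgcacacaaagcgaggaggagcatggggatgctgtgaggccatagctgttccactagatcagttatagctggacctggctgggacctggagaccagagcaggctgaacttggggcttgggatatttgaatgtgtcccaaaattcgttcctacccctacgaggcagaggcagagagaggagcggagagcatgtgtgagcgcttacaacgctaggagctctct
The window just after the start of Clvs2 had 1.82 and 2.17 scaled CPM at P0, against 12.9 and 15.6 at E12.5. The promoter of Lin28a was 63.3% G and C with 10 CpG dinucleotides, and that of Clvs2 52.7% with 8, against 54.7% with 3 in Crx and 44.7% with 3 in Sag.

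Promoters of genes with large changes had fewer CpG dinucleotides than promoters in general, whichever the direction. Regions with large changes were also weaker, with median levels of 6.92 scaled CPM for rises and 11.8 for falls, against 26.3 over all regions. The promoters compared were not matched for level, so a trait of weak regions cannot be told apart from one of changing regions. The median was 5 CpG in 300 bases for the 305 genes with a large rise and 4 for the 702 with a large fall, against 13 for all 14276. Median G and C content was 52.0%, 49.2% and 56.0% in the same order. The GC box GGGCGG was found in 27.2% and 26.2%, against 46.2% of all promoters. The ETS motif CCGGAAG was found in 6.56% and 1.99%, against 11.9%, and the NRF1 motif (GCGC and TGCGC, 1 base apart) in 0.98% and 0.57%, against 6.63%. The E-box CAGNTG was found in 59.7% and 53.6%, against 48.4%. The nuclear factor I pair (TGGC and GCCA, 5 bases apart) was in 2.62% of promoters with a large rise, 8 in number, in 0.43% of those with a large fall and in 0.72% of all. AP-1 (TGANTCA) had 7.54% and 12.3%, against 7.41%, the TATA box 16.1% and 20.9%, against 13.7%, SOX (AACAAAG) 8.20% and 5.98%, against 5.06%, and the homeobox motif 4.59% and 6.84%, against 4.82%. Motifs were searched on both strands, a promoter counts for every motif it holds even where matches overlap, and shares over lists of unequal size carry no test. Across genes, G and C content correlated with the log2 change at r = 0.138, and at r = 0.586 with TMM, over promoters that share the same libraries.

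At the scale of 200 bp windows, the share of tested windows with a large rise was higher away from the start. Of 247050 windows with a mean count of at least 20, 73008 were called (29.6%), or 40019 without the first P0 library, and 14153 had a large rise (5.73%) and 18779 a large fall (7.6%). Within 1 kb of the start, 2.87% had a large rise and 6.82% a large fall. At 3.5 to 5 kb, 12.7% had a large rise and 9.41% a large fall. With TMM the same shares of rises were 3.09% and 9.43%, and those of falls were 9.68% and 14.5%, so that distant rises outnumbered distant falls with the trend only. The filter passes few distant windows, 28042 of 452863 at 3.5 to 5 kb against 141858 of 283052 within 1 kb, and those that pass are the more accessible ones.

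**Figure D5:**
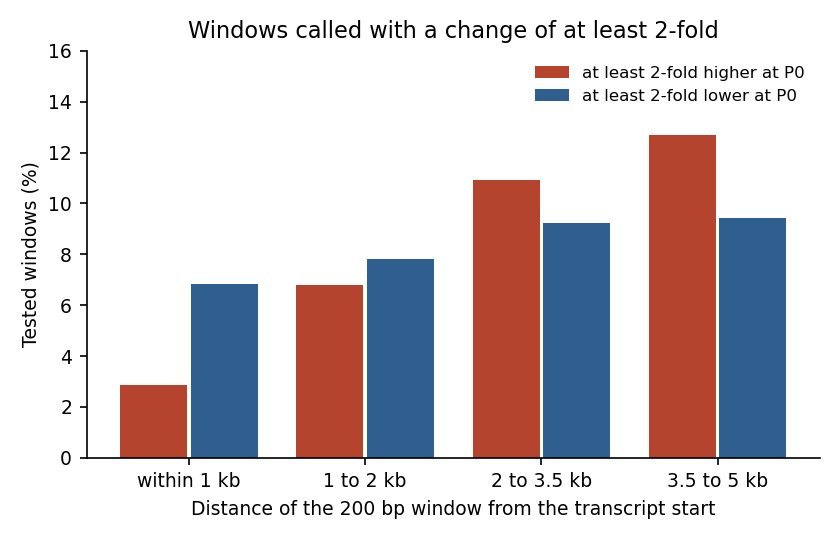
Percentage of tested 200 bp windows that were called with a change of at least 2-fold, higher (red) or lower (blue) at P0 than at E12.5, by distance from the transcript start on both sides. The share with a rise goes up from 2.87% within 1 kb to 12.7% at 3.5 to 5 kb, and that with a fall from 6.82% to 9.41%.

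Single sites more than 1 kb from a start differed widely between the ages. A window 2.5 kb after the start of Gemin8, a subunit of the SMN complex, had 9.46 and 8.81 scaled CPM at P0, against 0.0972 and 0.177 at E12.5, a log2 change of 6.10 ± 0.32. One 2.9 kb after the start of Cxcl16, a chemokine, had 11.7 and 10.6 scaled CPM at P0, against 0.0675 and 0.323 at E12.5 (5.97 ± 0.29), and one 4.1 kb after the start of Slc27a1, a fatty acid transporter, had 18.4 and 16.3 scaled CPM at P0, against 0.304 and 0.277 at E12.5 (5.89 ± 0.24). These sites were close to 0 at E12.5 and E14 and appeared later, with means at E16.5 and E18 of 2.86 and 5.48 for Gemin8. In the other direction, a window 3.9 kb after the start of Tph2, tryptophan hydroxylase, had 0.0567 and 0 scaled CPM at P0, against 3.63 and 4.22 at E12.5. One 4.9 kb after the start of Npnt, nephronectin, had 0.0539 and 0 scaled CPM at P0, against 3.09 and 4.29 at E12.5, and one 2.7 kb after that of Slco1a4, an organic anion transporter, had 0.0582 and 0 scaled CPM at P0, against 3.49 and 3.29 at E12.5. The windows of Tph2 and Slco1a4 were already low at E14 (1.18 and 0.364), while that of Npnt stood at 3.82. Within Pax6, a window 4.5 kb after a start had 26.0 and 27.1 scaled CPM at P0, against 2.61 and 1.82 at E12.5, and within Bhlhe22, an amacrine factor, one 4.3 kb after the start had 22.3 and 20.1 scaled CPM at P0, against 0.828 and 1.21 at E12.5, although the central 2 kb of these genes changed by -0.38 and 0.30.

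The change was spread over the whole interval. Regions with a large rise had median levels of 4.13, 5.37, 6.66, 7.89 and 10.1 scaled CPM at E12.5, E14, E16.5, E18 and P0. Past the midpoint between the ends were 282 of the 757 at E14, 443 at E16.5 and 617 at E18, and 175 rose at every step. Regions with a large fall had medians of 18.1, 13.5, 11.5, 8.74 and 6.64, and 465 of the 1332 fell at every step, with 555 past the midpoint at E14. The rule that chose these regions used the values of P0 and E12.5, so that their ends are a description, and over all regions 1171 rose and 1237 fell at every step. Regions with large changes held a smaller part of their counts near the start: the median share of counts in the central 2 kb was 23.1% for rises and 39.0% for falls, against 54.2% for all regions. Of the 757 rises, 488 were also called higher in the central 2 kb and 1 lower.

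Hox genes, which pattern the body axis, rose nearly without exception. Of 32 members over the 4 clusters, 30 were called higher at P0, none lower, and 9 had a large change, with a median of 0.77. Hoxd3 had 26.4 and 27.2 scaled CPM at P0, against 12.6 and 12.1 at E12.5, Hoxd9 had 39.0 and 39.1 scaled CPM at P0, against 18.8 and 18.8 at E12.5 and Hoxa7 had 45.3 and 42.1 scaled CPM at P0, against 20.2 and 22.0 at E12.5. The levels of E14 already lay above those of E12.5, at 22.5, 30.6 and 34.6. Neighbouring Hox regions overlap and are not independent. The median was positive under each scaling, with 24 called higher and none lower with TMM and 19 higher and 1 lower with library size. Ribosomal protein genes, expressed in all cells, were called higher in 22 of 37 cases and lower in 1, with a median of 0.23 and, with TMM, higher in 36 and lower in none, with a median of 0.53. Rps7 had 35.0 and 40.8 scaled CPM at P0, against 20.5 and 20.4 at E12.5, and Rpl19 was the member called lower (-0.24, and 0.13 with TMM).

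Genes of other cells that a sort could carry over were called in both directions, in shares that differed by list. Over all genes the shares were 24.4% higher and 23.1% lower. Microglia genes were called lower in 2 of 9 cases (22.2%), near the share of all genes, and higher in none. Their summed level was 49.3 and 37.0 at P0, against 53.8 and 53.3 at E12.5. That of endothelial and mural genes was 239.8 and 256 at P0, against 228 and 228 at E12.5, with 4 members higher and 3 lower of 9. Among them, Kdr had 84.1 and 85.5 scaled CPM at P0, against 56.5 and 55.6 at E12.5. Esam, Rgs5 and Tek were called lower, at -0.91, -1.39 and -1.13. Kdr RNA had 69.4 and 22.9 FPKM in GFP+ cells at E14 and 226 and 233 FPKM at P2. Tek RNA had 0.0561 and 0.0532 FPKM at E14 and 0.0371 and 0.0379 FPKM at P2. Lens genes summed to 84.3 and 87.6 at P0, against 122 and 115 at E12.5, with 1 higher and 4 lower of 9 (44.4% lower). Their sum was already 76.6 and 77.2 at E14. Astrocyte genes summed to 156 and 154 at P0, against 184 and 177 at E12.5, with 1 higher and 3 lower of 6 (50% lower). Mesenchyme genes summed to 366 and 383 at P0, against 399.5 and 399.6 at E12.5, with 3 higher and 6 lower of 10 (60% lower). Erythroid genes summed to 95.2 and 96.5 at P0, against 95.9 and 97.7 at E12.5, with 2 each way of 7, and pigment epithelium genes to 195 and 208 at P0, against 174 and 188 at E12.5, with 1 higher, Ttr, and 2 lower of 9. Ttr by itself had 44.6 and 45.9 scaled CPM at P0, against 13.1 and 13.8 at E12.5. With TMM, 8 of 9 microglia genes and 8 of 9 lens genes were called lower and none higher, beside 9473 of all 24052 genes called lower. These lists had median levels of 6.61 and 6.23 scaled CPM, against 26.4 over all genes, and changes with TMM went with the level. With the trend on start share the medians of astrocyte and mesenchyme genes became positive, at 0.67 and 0.26. No defining marker was at 0 at either age. Tyrobp and C1qb of microglia, at a mean of 2.02 and 1.78 scaled CPM at P0, against 2.18 and 3.05 at E12.5, were among the lowest. In sorted bulk cells, a change in the share of cells of a kind and a change of accessibility per cell cannot be told apart, and the part of other cells in these results was not tested.

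RNA-seq of GFP+ cells was available at P2 and E14 in place of P0 and E12.5. With limma on log2(FPKM + 1), 164 of 14276 genes differed between P2 and E14 (1.15%), 133 higher at P2 (0.932%) and 31 lower (0.217%). These counts hung on single libraries: of the genes that also had a region, 129 were called higher and 27 lower, against 15 and 0 without the first P2 library, 35 and 0 without the second, 300 and 148 without the first E14 library and 39 and 5 without the second. Of 617 genes whose main region had a large rise, 183 had RNA above the filter, with a median log2 difference of 0.51, a positive difference in 152 and 27 called higher at P2 and none lower. The 27 became 9 without the first P2 library, 14 without the second, 45 without the first E14 library and 16 without the second, with none lower in each. Of 1161 genes whose region had a large fall, 333 had RNA above the filter, with a median of -0.23, a positive difference in 83, and 2 called higher and 1 lower, or 0 to 4 higher and 0 to 15 lower when 1 library was left out. Over all 12915 genes with both readouts the median was -0.004, and 6395 were positive. The filter passes a gene through the age where it is high, so these values are a description of the genes that passed. Without the filter the medians were 0.05 over 383 genes and -0.02 over 824, with 263 and 265 positive. Leaving out the second E14 library moved the median of the genes with a large fall to -0.14.

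Nfix RNA had 72.2 and 55.8 FPKM at P2, against 1.43 and 0.0657 FPKM at E14 (log2 difference 5.32 ± 0.43, adjusted p = 0.00204). Rlbp1 RNA had 188 and 79.5 FPKM at P2, against 2.66 and 0.414 FPKM at E14, and both genes were higher in both P2 libraries than in either E14 library. Of the 12 largest rises in accessibility, 6 had RNA above the filter, and 4 were called higher at P2. Of these, Tmprss5 RNA had 8.76 and 7.99 FPKM at P2, against 0.210 and 0 FPKM at E14, Omg RNA 16.6 and 11.0 FPKM at P2, against 0.0312 and 0 FPKM at E14, Fxyd3 RNA 2.87 and 1.96 FPKM at P2, against 0.0645 and 0.0293 FPKM at E14, and Nwd1 RNA 3.73 and 4.45 FPKM at P2, against 0.0434 and 0.00693 FPKM at E14. Nrl RNA had 51.3 and 21.7 FPKM at P2, against 1.37 and 0 FPKM at E14 and was called, whereas Crx RNA had 182 and 105 FPKM at P2, against 27.4 and 2.25 FPKM at E14 and was not (adjusted p = 0.153). Lin28b and Stmn2, whose accessibility fell, and Foxp1, whose accessibility fell at a start other than the main one, did not pass the test for RNA. Lin28b RNA had 0.441 and 0.607 FPKM at P2, against 2.78 and 14.2 FPKM at E14, and Foxp1 RNA 7.79 and 9.29 FPKM at P2, against 30.7 and 86.2 FPKM at E14 (adjusted p = 0.192 and 0.142). Stmn2 RNA had 3.23 and 6.64 FPKM at P2, against 36.0 and 8.62 FPKM at E14 (adjusted p = 0.771), and Shh was listed at 0 FPKM in all 4 libraries. For some named genes RNA went the other way from accessibility, without being called. Snap25, whose region fell, had 44.6 and 20.3 FPKM at P2, against 9.88 and 0.956 FPKM at E14 (adjusted p = 0.605). Hmga2, Pax6 and Rps7, whose main regions rose, had RNA differences of -2.99, -1.09 and -0.82 (adjusted p = 0.498, 0.062 and 0.181). When each of the 4 RNA libraries was left out in turn, Nfix, Tmprss5, Omg and Nwd1 stayed called in every case, whereas the highest adjusted p reached 0.104 for Rlbp1, 0.204 for Nrl and 0.186 for Fxyd3, each without the first P2 library. Crx was called without the first E14 library (adjusted p = 0.0422).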

How the data were processed

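The members and gene lists were chosen with earlier results of these data known. The authors deposited raw counts for ATAC-seq (200 bp windows and exons) and, judging from the values, FPKM for RNA-seq. Per the submitters' processing notes, Bowtie2, HISAT2, Picard 2.10.7, SAMtools 1.5, bedtools 2.26.0 and featureCounts 1.5.3 were used, the step not stated. Window positions follow mm9. Counts were summed to 10 kb regions and fitted over 10 libraries (5 residual degrees of freedom) in edgeR 4.0.16 with the quasi-likelihood test, offsets from a loess trend (span 0.3) of log counts on mean abundance, and Benjamini-Hochberg adjustment over all features. Lists use a gene's region with most counts.

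Named genes were 24 anchors, the 12 highest and 12 lowest called regions whose levels did not overlap between the ages and whose mean count was at least 100 in the higher stage, up to 4 called members per list by p, and the 3 highest and 3 lowest windows beyond 1 kb from a start. Other list members, further starts and RNA were picked after their values were seen. RNA was fitted with limma 3.58.1 on 12 libraries as log2(FPKM + 1), for genes with at least 1 FPKM in 2 libraries. Deviations of same-numbered replicates correlated at r = 0.0065 for P0 and E12.5 and at -0.268 to 0.222 over all 10 pairs of stages, so numbers were not used as pairs. The fit was tested on data simulated with the same abundance trend, so that this test cannot tell which scaling is right. With the trend it recovered 61.2% of regions changed 1.5-fold, 80.6% of those changed 2-fold and 100% of those changed 4-fold. Alternatives were TMM, library size and DESeq2 1.42.0 scaling, a trend on start share, other filters, 4 or 13 libraries, a replicate block and leaving out each library. Some named members are not reported here.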

Additional observations from a re-analysis of the deposited data

How the results depend on the processing

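Regions called at 0.05 numbered 13277, and 21601 with TMM, 20044 with library size, 21501 with DESeq2, 7383 without overlapping regions (15576 tested, which is fewer) and 10110 to 13703 when each library was left out. Large changes numbered 2089, and 7297 with TMM, 8268 with library size, 7241 with DESeq2, 3928 with a trend on start share and 1363 without overlapping regions. For the central 2 kb the counts were 11376, and 18500 with TMM, 17612 with library size (5981 higher and 11631 lower) and 18028 with DESeq2, and large changes 2915, and 7069, 8086 and 6872 in the same order. For exons they were 8142, and 12715 with TMM, 12187 with library size (4640 higher and 7547 lower) and 4375 to 8343 when a library was left out, lowest without the first P0 library; large changes were 1939, and 4355 with TMM, 4975 with library size and 3653 with DESeq2. Windows called were 73008, and 40019 to 64035 when a P0 or E12.5 library was left out; large changes were 32932, and 15541 at a mean count of 50. Why the scalings differ was not tested. The difference in start enrichment was 8.96, and 3.04 over the central 2 kb. The RNA median of genes with a large rise was 0.51, and 1.16 with a pseudocount of 0.1 and 0.047 with no filter; that of genes with a large fall was -0.23, and -0.65 with a pseudocount of 0.1.

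Of 117 named regions under 19 settings, 17 lost their call at least once and 15 changed sign. With a trend on start share, log2 changes became positive for Fgf15 (0.38), Sfrp2 (0.18), Igf2bp1 (0.36), Foxn4 (0.78), Pou4f2 (0.27), Id3 (0.11), Esam (0.68), Epor (0.41), Gfap (0.61), Pax2 (0.52), Aqp4 (0.73) and Prrx1 (0.40). With DESeq2 and TMM they changed sign for Fgf15 (0.30 and 0.29), Sfrp2 (0.10 and 0.090), Foxn4 (0.26 and 0.26), Alas2 (-0.47 and -0.46) and S100b (-0.32 and -0.34). With library size they did so for Fgf15 (0.081), Foxn4 (0.050), Alas2 (-0.66), Bfsp2 (-0.20) and S100b (-0.54). When 1 library was left out, the Fgf15 region ranged over -0.14 to 0.0021 (highest without the second P0 library) and the Foxn4 region over -0.14 to 0.026 (highest without the second E12.5 library). The replicate block gave 12864 called regions and changed no named call. The labels give no pairing by replicate number. Depth was lowest in the second P0 library, at 11176227 counts in regions.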

Other observations

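A stretch of mouse chromosome 1 (mm9 chr1:90103534-90208286) held 6 neighbouring regions that were all lower at P0, chosen here after their values were seen. Their log2 changes were -2.12 for Ugt1a1, -2.49 for Mroh2a, -1.13 for 6430706D22Rik, -1.25 for A730008H23Rik, -1.21 for Hjurp and -3.06 for Trpm8, while the flanking regions of Dnajb3 and Spp2 were at 0.50 and -0.52. The fall was spread along the windows: the first 46 windows of the Trpm8 region held a mean count of 0.913 and 0.652 per window at P0, against 19.4 and 24.9 at E12.5, and the last 4 windows 1 and 0 at P0, against 2 and 1.25 at E12.5. The left-out E10 library held 18.8 per window in the first 46. The regions of A730008H23Rik and Hjurp overlap and share most counts.

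Apart from Sirpb1a, the regions of Mup2, Mup15 (which overlaps that of Mup2), Defa30, Mup18, Ear1 and BC018473 had 0 counts in both P0 libraries. BC018473 had 91 and 75 counts at E12.5 and 0 in every library of E14, E16.5 and E18 as well. Most of these genes belong to families of near-identical copies, so that their counts are uncertain.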
